A study of Mus musculus with 2 samples.

Results

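Non-classical monocytes of the mouse lung, the members below, were described from 2 droplet single-cell RNA libraries. A cell counted as a member when it held a UMI (unique molecular identifier, 1 captured RNA molecule) of at least 3 of the 6 genes Ace, Adgre4, Treml4, Cd300e, Eno3 and Cd300ld, and fewer than 10 UMIs of C1qa, C1qb, C1qc and Ms4a7 summed. This gave 264 members among 6621 kept cells, 234 in the distal library and 30 in the niche library. Female Balb/c mice had received Labelling-4T1 mouse mammary carcinoma cells by vein, and their metastatic lungs were taken 7 days later. Cells were dissociated and sorted by flow cytometry, with 1 library of immune cells close to metastases (niche) and 1 of immune cells from the rest of the lung (distal). In the labelling system of this line, carcinoma cells release a fluorescent protein that neighbouring cells take up, so the distal cells came from lungs that carried metastases too. The sources used here state neither the sort gates nor how many animals stand behind a library, and no lung without carcinoma cells was analysed here.

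Non-classical monocytes patrol the inner wall of small blood vessels, held to it by LFA-1 and CX3CR1, and take up debris from the vessel lumen. In mice they derive from classical Ly6C-high monocytes, need the nuclear receptor NR4A1, and live longer than their precursors in blood. In the lung they are known for engulfing tumour material and for recruiting natural killer cells during metastasis.

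The members were chosen by the same transcriptome that is described here, so the levels of the 6 rule genes and of the 4 exclusion genes are no finding. Each group was 1 library, so no difference has a replicate check, and every interval below is a 95% interval for counting error only. Levels are CPM, the UMIs of a gene per 1000000 UMIs of the population, and log2 ratios were computed with 0.5 UMI added to each sum. A gene was counted as higher or lower at a ratio of 2 or more, among genes with a mean of at least 10 CPM over both populations compared. Members held a median of 3732 UMIs and 1521.5 genes in the distal library and 7890.5 UMIs and 2503.5 genes in the niche library. The 2 libraries shared 4 cell barcodes, of which 1 belonged to a member.

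Ace (angiotensin-converting enzyme) was at 571 CPM in the distal members and at 12.1 CPM in all other distal cells. Adgre4, an adhesion receptor of the EGF-TM7 family, was at 368 against 4.93 CPM. Treml4, a receptor of the TREM family, was at 381 against 16.0 CPM. Each of these 3 genes took part in the choice of the cells, as did the activating receptor Cd300e at 213 against 3.43 CPM, the muscle-type enolase Eno3 at 547 against 14.3 CPM, and Cd300ld at 337 against 18.7 CPM. All 6 differ by construction. After thinning each cell to 2000 UMIs, the share of T cells with a UMI of a rule gene ranged from 0% to 3.08%, which is the level that free RNA can reach in cells that should lack these genes.

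The promoters of 3 rule genes are shown because their products mark the same cells: Adgre4 on chromosome 17, and Cd300ld and Cd300e, neighbours in the CD300 cluster of chromosome 11. The sequences are RefSeq promoters on GRCm38.p6, from 250 bases before to 50 bases after the start of the transcript, at chr17:55749734-55750033 (plus strand), chr11:114989837-114990136 (minus strand) and chr11:115061990-115062289 (minus strand). Capitals mark matches, on either strand, to the PU.1 motif GAGGAAGT and to the C/EBP motif TTGCNNAA.
Adgre4: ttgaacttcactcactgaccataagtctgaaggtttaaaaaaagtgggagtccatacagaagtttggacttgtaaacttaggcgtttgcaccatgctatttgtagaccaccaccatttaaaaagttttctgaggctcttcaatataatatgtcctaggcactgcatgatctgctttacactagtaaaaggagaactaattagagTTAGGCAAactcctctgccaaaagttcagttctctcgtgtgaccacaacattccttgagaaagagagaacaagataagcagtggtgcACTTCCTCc
Cd300ld: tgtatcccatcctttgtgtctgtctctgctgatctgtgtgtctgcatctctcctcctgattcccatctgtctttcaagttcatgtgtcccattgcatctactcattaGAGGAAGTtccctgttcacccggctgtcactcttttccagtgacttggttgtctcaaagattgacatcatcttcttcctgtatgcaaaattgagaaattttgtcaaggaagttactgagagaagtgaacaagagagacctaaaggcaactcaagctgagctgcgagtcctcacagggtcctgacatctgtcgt
Cd300e: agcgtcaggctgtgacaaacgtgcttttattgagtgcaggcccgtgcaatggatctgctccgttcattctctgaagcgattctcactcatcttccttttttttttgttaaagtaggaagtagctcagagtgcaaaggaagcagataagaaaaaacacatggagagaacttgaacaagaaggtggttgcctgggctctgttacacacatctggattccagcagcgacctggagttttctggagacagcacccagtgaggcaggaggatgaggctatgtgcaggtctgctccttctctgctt

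All 6 rule genes had a promoter in the table, 7 windows in all because Ace has 2. GAGGAAGT was found in 2 of the 6 genes, Adgre4 and Cd300ld, and in 3.20% of all 32851 promoters. TTGCNNAA was found in Adgre4 alone of the 6, against 10.8% of all promoters. No rule gene held the NR4A1 element AAAGGTCA, present in 1.51% of promoters, or the KLF motif CCACACCC, present in 3.56%. A match of these letters is a description and not a binding site. Among 10 further genes with the highest ratios outside the gene lists, 5 had promoters, of which Serpinb2 held the C/EBP motif and Pglyrp1 the KLF motif.

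Members made up 6.61% of the kept distal cells (234 of 3540, 5.81% to 7.48%) and 0.974% of the kept niche cells (30 of 3081, 0.658% to 1.39%; exact Clopper-Pearson intervals). The distal share was 6.79 times the niche share (4.63 to 10.3), a ratio of 12.5 with the rule applied after thinning each cell to 2000 UMIs and of 3.10 with at least 2 rule genes. The niche share was 0.413% and 2.76% under these alternatives. Much of this ratio lies in the exclusion genes: of the cells with at least 3 rule genes, the C1q part of the rule left out 18 distal cells (7.14%) and 80 niche cells (72.7%). Without that part the shares were 7.12% and 3.57%, a ratio of 1.99 (1.59 to 2.52). Of the cells left out, 1 in each library held 10 to 19 UMIs of the exclusion genes and the rest held more. This ratio thus counts cells well above the C1q limit, and whether those cells are monocytes was not tested. C1q macrophages, defined here as non-members with at least 10 UMIs of the 4 exclusion genes and fewer than 3 alveolar macrophage markers, were 71.4% of the niche cells and 12.9% of the distal cells. Among the cells below the C1q limit, members were 7.62% in the distal library and 3.41% in the niche library. The sort gates can set such shares, and their part was not tested.

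The 2 libraries also differed in where their members lay above the threshold. In the distal library 55, 63, 62 and 54 members held 3, 4, 5 and 6 rule genes, with 69 further cells below the C1q limit at 2 rule genes, 500 at 1 and 2267 at 0. In the niche library 13, 8, 4 and 5 members held 3 to 6 rule genes and 55 cells stood at 2. Distal cells at 3 rule genes, just inside, held 865 CPM of Nr4a1 and 791 CPM of Pou2f2, against 169 and 197 CPM in cells at 2 rule genes, just outside, although the latter had 7232 median UMIs against 3573. Near the C1q limit, 0 distal and 5 niche members held 5 to 9 exclusion gene UMIs, and 1 cell of each library with 3 or more rule genes held 10 to 19.

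**Figure D1:**
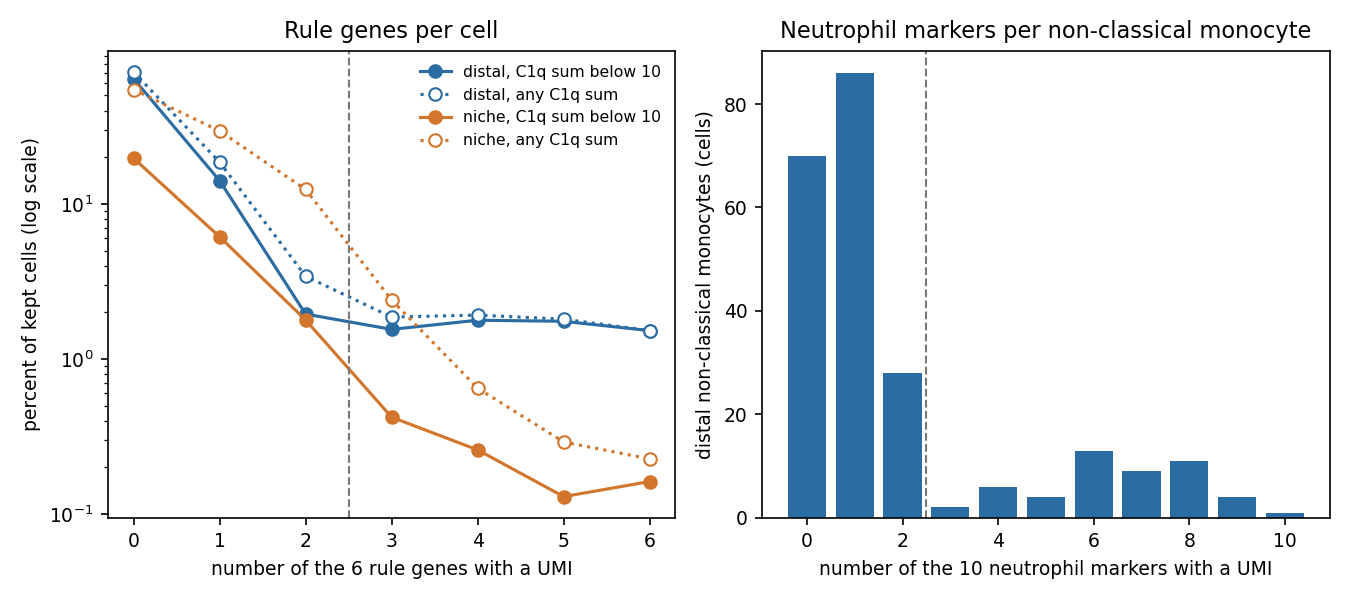
Left, percent of kept cells (log scale) by the number of rule genes with a UMI, for the distal and niche libraries, with the C1q limit (filled points) and without it (open points); the dashed line marks the threshold of 3. Right, number of distal members by the number of the 10 neutrophil markers they held; 184 members held 0 to 2 and 50 held 3 to 10.

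Neutrophil RNA divided the distal members. Of 234 members, 70, 86 and 28 held 0, 1 and 2 of 10 neutrophil markers, 2 held 3, and 48 held 4 to 10. The 50 members with 3 or more had S100a8, an alarmin of neutrophils, at 12641 CPM, against 19.7 CPM in the other 184. Cxcr2, the neutrophil chemokine receptor, was at 346 CPM in the 50 and at 0 in the 184. Both genes are among the 10 markers that made this split, so they differ by construction. The 50 had more UMIs (median 4898.5 against 3328) and a lower summed level of the rule genes (1666 against 2729 CPM). Nr4a1 was at 929 against 1049 CPM and Pou2f2 at 721 against 1133 CPM, so both groups carried these 2 genes. Distal neutrophils held Nr4a1 as well, at a level given below, so that gene does not tell the 2 cell types apart. Markers of any of 8 other lineages, 3 or more of 1 lineage, were found in 69 distal members (29.5%) and 8 niche members (26.7%). The neutrophil marker list, all 10 of 10 detected, ranged from 0 to 206459 CPM over distal members with a median of 371 CPM, and in the niche 3 of 30 members held 3 or more. Whether these droplets hold 2 cells or attached neutrophil material was not tested, so list counts that differ by 2 or more genes without the 50 cells are given both ways.

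The question of the main comparison was which genes set the members apart from the other 3306 distal cells. Genes known for non-classical monocytes that played no part in the rule were higher as a group: 22 of 24 by 2-fold or more, with 0 lower and a median log2 ratio of 2.01. Of all 7584 genes compared, 613 (8.08%) were 2-fold or more higher and 804 (10.6%) lower, with a median of -0.04. Because the cells were chosen on 6 genes of this transcriptome, this is a check of the name and not a test. The exceptions were Ear2 (596 against 923 CPM), which alveolar macrophages held at 1883 CPM, and Cd274 (81.7 against 127 CPM).

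Nr4a1, on chromosome 15 at 101254269 to 101274795 (GRCm38), encodes the nuclear receptor on which these cells depend. It was at 1013 CPM in members (954 to 1075) and at 158 CPM in other distal cells (log2 ratio 2.69, 2.58 to 2.78). The next highest levels were those of neutrophils (500 CPM) and classical monocytes (434 CPM), and endothelial cells were lowest at 61.8 CPM. A UMI of Nr4a1 was found in 78.4% of members thinned to 2000 UMIs (91.0% unthinned), against 18.2% of thinned T cells (31.2% unthinned, median depth 3006.5). Nr4a1, Klf2 and Klf4 also belong to the immediate early list, which tissue handling can induce. Of its 22 genes 7 were 2-fold or more higher in members and 1 lower, with 20 above 0 (median 0.57). The part of handling was not tested.

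Pou2f2, which encodes the transcription factor OCT2, stood at 1012 CPM in members and 77.1 CPM elsewhere (log2 ratio 3.71, 3.60 to 3.83). B cells, where OCT2 was first studied, followed at 358 CPM. Klf2, a zinc-finger factor of quiescent and vascular cells, was at 1167 against 293 CPM, but neutrophils exceeded the members at 2100 CPM. Hes1, a target of Notch signalling, was at 236 against 18.9 CPM, and endothelial cells held a little more (286 CPM). Cebpb, a factor needed for the survival of non-classical monocytes, was at 3129 against 1036 CPM and was highest in neutrophils at 4396 CPM. The members therefore led all 8 distal populations for Nr4a1 and Pou2f2, and not for Klf2, Hes1 or Cebpb.

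Receptors of vessel patrol were high as well. Spn (CD43, a sialomucin) was at 259 CPM in members, 113 CPM in T cells and 38.3 CPM in all other cells together. Itgal, the alpha chain of LFA-1, was at 531 against 141 CPM. Cx3cr1, the fractalkine receptor, was at 320 against 57.4 CPM, with C1q macrophages at 225 CPM as the nearest population. S1pr5, a sphingosine phosphate receptor that guides exit from bone marrow, was at 45.5 against 0.580 CPM and at 0 in 5 of the 7 other populations. Ceacam1 was at 209 against 9.96 CPM and Rap1gap2 at 112 against 8.89 CPM. Among genes of adhesion and migration 9 of 24 were 2-fold or more higher and 0 lower (median 0.68), and 2 were lower without the neutrophil-marked members.

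Receptors and carriers gave further differences. Fabp4, a fatty acid carrier, was at 308 CPM in members, 69.5 CPM in endothelial cells and 26.7 CPM in alveolar macrophages, with 0 UMIs in classical monocytes, neutrophils and B cells. It was found in 38.9% of thinned members (52.1% unthinned) and in 0 of 325 thinned T cells. At a floor of 3 cells this allows a share of up to 0.923%, which is not an exact interval. Csf1r, the receptor of the growth factor that sustains monocytes, was at 462 against 149 CPM, and Bcl2, a survival gene, at 140 against 39.1 CPM. Of 26 genes of Fc and paired immune receptors 12 were higher and 2 lower (13 and 4 without the neutrophil-marked members), among the higher ones Clec4a1 (383 against 48.2 CPM), Cd300a (565 against 109 CPM) and Trem3 (139 against 17.0 CPM). Fcgr4, the Fc receptor of this subset, was at 464 against 194 CPM, while C1q macrophages held 447 CPM.

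**Figure D2:**
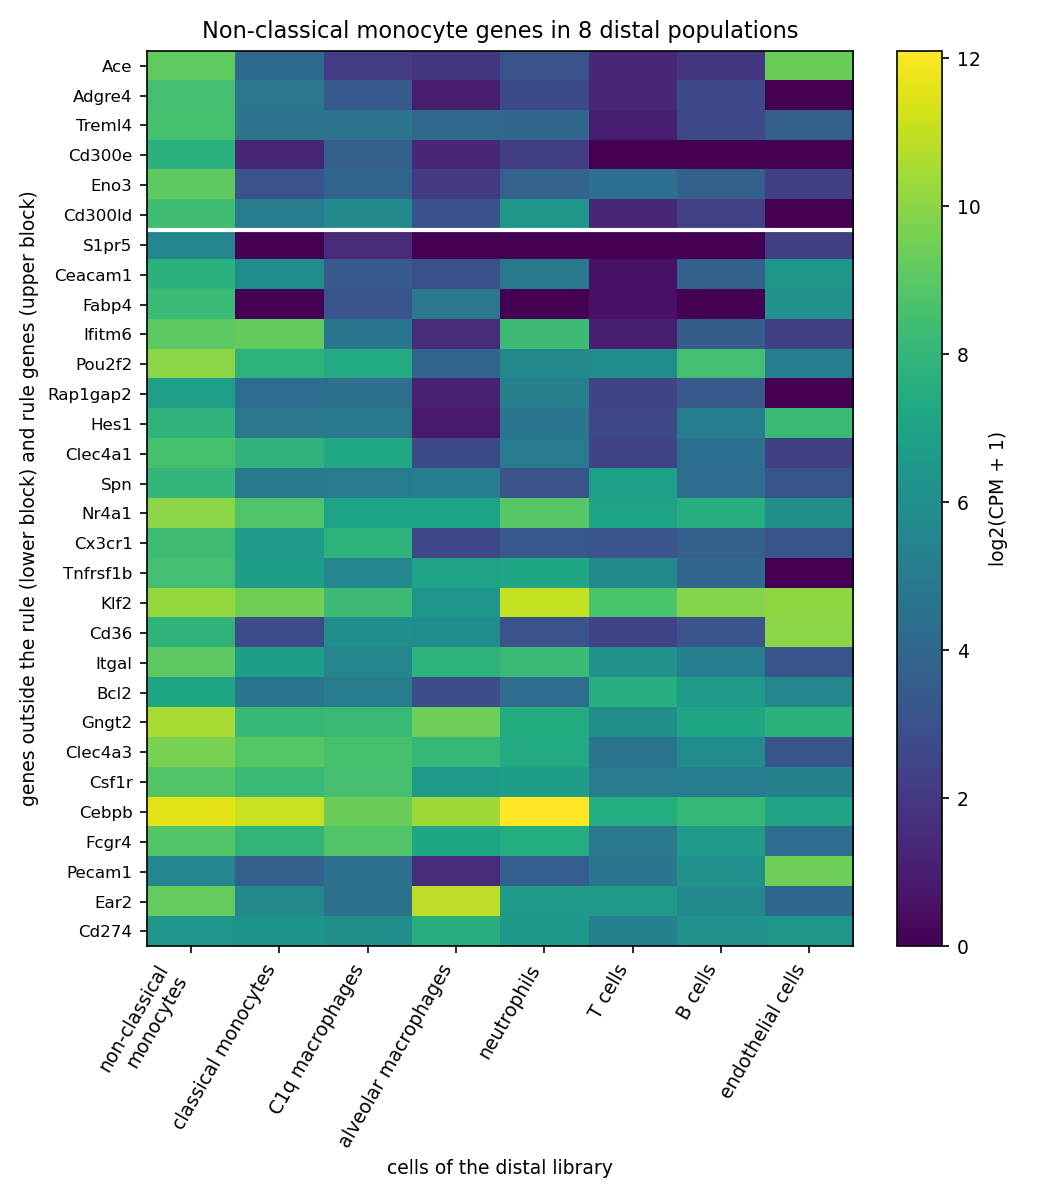
Level of the 6 rule genes (above the white line) and 24 further non-classical monocyte genes (below it, ordered by their ratio to all other distal cells) in 8 populations of the distal library, as log2(CPM + 1). Fabp4 (308 CPM) and S1pr5 (45.5 CPM) are highest in the members, whereas Cebpb and Klf2 are highest in neutrophils and Ear2 in alveolar macrophages.

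Outside the lists, Scnn1a, the alpha subunit of the epithelial sodium channel, was at 66.8 against 1.93 CPM (log2 ratio 5.10, 4.53 to 5.71), and Slc12a2, a sodium-potassium-chloride cotransporter, at 136 against 4.16 CPM (5.03, 4.64 to 5.44). UMIs of Scnn1a were spread over 57 members and those of Slc12a2 over 86, with at most 5.56% and 4.08% in 1 cell. Also among the 12 highest were Ldlrad3 (3.97), Arhgef10l (3.93), Serpinb2 (3.91), Zfyve9 (3.85), Cd244 (3.49), Stap1 (3.12) and Pglyrp1 (3.09), given as log2 ratios. The secretory genes Bpifa1 and Scgb3a2 had higher ratios still, but all 148 and 64 of their UMIs came from 1 cell, which also held 94.1% of the Scgb1a1 UMIs of members.

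Several programmes were low in members. Of 18 cell cycle genes 16 were 2-fold or more lower and 0 higher (median -2.33), with Ccna2 and Ccnb1 at 0 UMIs, at least 10.3-fold and 9.25-fold lower at a floor of 3 counts over the group. Mki67 was at 6.50 against 74.3 CPM. The median was -3.57 without the neutrophil-marked members. Of 18 genes of lipid uptake 10 were lower and 3 higher (median -1.40), but this depended on the alveolar macrophages: without them in the reference the median was 0.10, and Cidec stood at 1.73 in place of -3.04. The 3 higher members of that list included Fabp4 and Cd36 (a scavenger receptor for fatty acids, 236 against 61.0 CPM). Of 19 genes of phagocytosis and the lysosome 8 were lower and 1 higher. Among the lower were Cd63 (log2 ratio -4.25), the phosphatidylserine receptors Axl (32.5 against 306 CPM) and Mertk (2.78 against 28.9 CPM), and Timd4 with 0 UMIs. Against the distal classical monocytes alone, 2 of 17 genes of this list were lower and 1 higher (median -0.30).

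Antigen presentation and chemokines were lower too. Of 9 MHC class II genes 5 were 2-fold or more lower and 0 higher (median -1.06), for example H2-Eb1 at 1454 against 3143 CPM. The per-cell level of these genes ran from 0 in 24 members through a median of 2410 to 83071 CPM in the highest, so the members were far from uniform. Of 12 MHC class I genes all lay within 2-fold. Of 22 cytokine and chemokine genes 10 were lower and 1 higher, and 12 were lower and 0 higher without the 50 neutrophil-marked members (median -0.79 and -1.57). Il1a was at 3.71 against 63.3 CPM, Ccl7 at 2.78 against 50.1 CPM and Ccl22 at 0. Il1b, which neutrophils carry, was at 7724 CPM in the neutrophil-marked members and 3179 CPM in the other 184. Further low genes outside the lists were Retnla, Mgl2, Ccl8, Cxcl15, Ctsk and Saa3, each with 1 to 6 UMIs in all members together.

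Classical monocytes are the precursors of these cells, and the next comparison asked how the 2 subsets differ within the same library. Classical monocytes were 120 non-members with a UMI of at least 3 of Ly6c2, Ccr2, F13a1, Vcan and Hp, and fewer than 10 exclusion gene UMIs, and those 5 genes are no finding here. This reference held neutrophil RNA too. Its summed neutrophil markers per cell had a median of 223 CPM, an upper quartile of 2595 CPM and a highest value of 98955 CPM. In the distal members these were 371, 1054 and 206459 CPM. Values without the neutrophil-marked members leave cells out on the member side only, and the part of neutrophil RNA in the reference was not tested. Of 7060 genes compared, 597 (8.46%) were 2-fold or more higher and 344 (4.87%) lower in the members, with a median of 0.07. Of the 24 non-classical genes outside the rule 16 were higher and 0 lower (median 1.89), and 23 of 24 lay above 0. The exception was Ifitm6 at 525 against 577 CPM.

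Fabp4 gave the widest gap, with 332 UMIs in members and 0 in classical monocytes, at least 68.9-fold higher. The other lipid genes higher in members were Cd36 (236 against 5.97 CPM), the tetraspanin Cd9 (464 against 46.2 CPM) and the cholesterol exporter Abcg1 (139 against 38.8 CPM). The lipid list as a whole stood at 4 higher and 1 lower of 14. Pparg, a nuclear receptor of fatty acid handling, was at 73.3 against 10.4 CPM, with 79 UMIs in 60 members and 7 UMIs in the classical monocytes.

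Adhesion genes were the second group with many higher members, 9 of 23, with 3 lower. Itgal was at 531 against 107 CPM, and Itgax (CD11c) at 112 against 17.9 CPM. S1pr5 had 49 UMIs in 43 members and 0 in classical monocytes, at least 10.2-fold higher, and Rap1gap2 was at 112 against 19.4 CPM. Spn stood at 259 against 28.3 CPM (log2 ratio 3.16, 2.52 to 3.95), and the log2 ratio of Cx3cr1 was 1.67 (1.30 to 2.08).

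Transcription factors and survival genes differed in fewer members. Pou2f2 had a log2 ratio of 2.18 (1.94 to 2.44), Hes1 of 3.10 (2.44 to 3.91) and Nr4a1 of 1.22 (1.04 to 1.41), within 5 higher and 2 lower of 25 factors. Batf3, a factor of dendritic cells, was among the lower ones at 36.2 against 99.9 CPM. Bcl2 was at 140 against 25.4 CPM and Bcl2a1d at 230 against 86.5 CPM, whereas Csf1r (462 against 292 CPM) stayed within 2-fold. Lilra5, an immunoglobulin-like receptor, was at 214 against 5.97 CPM, and Myo1g, a myosin of the plasma membrane, at 274 against 61.2 CPM. Outside the lists the highest ratios included Scnn1a (72 against 0 UMIs), Slc12a2 (5.94), Rbpms (3.45), Map3k14 (3.19), Heg1 (3.09), Arrdc3 (3.05), L1cam (2.86) and Cyfip2 (2.73), as log2 ratios where no count is given.

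**Figure D3:**
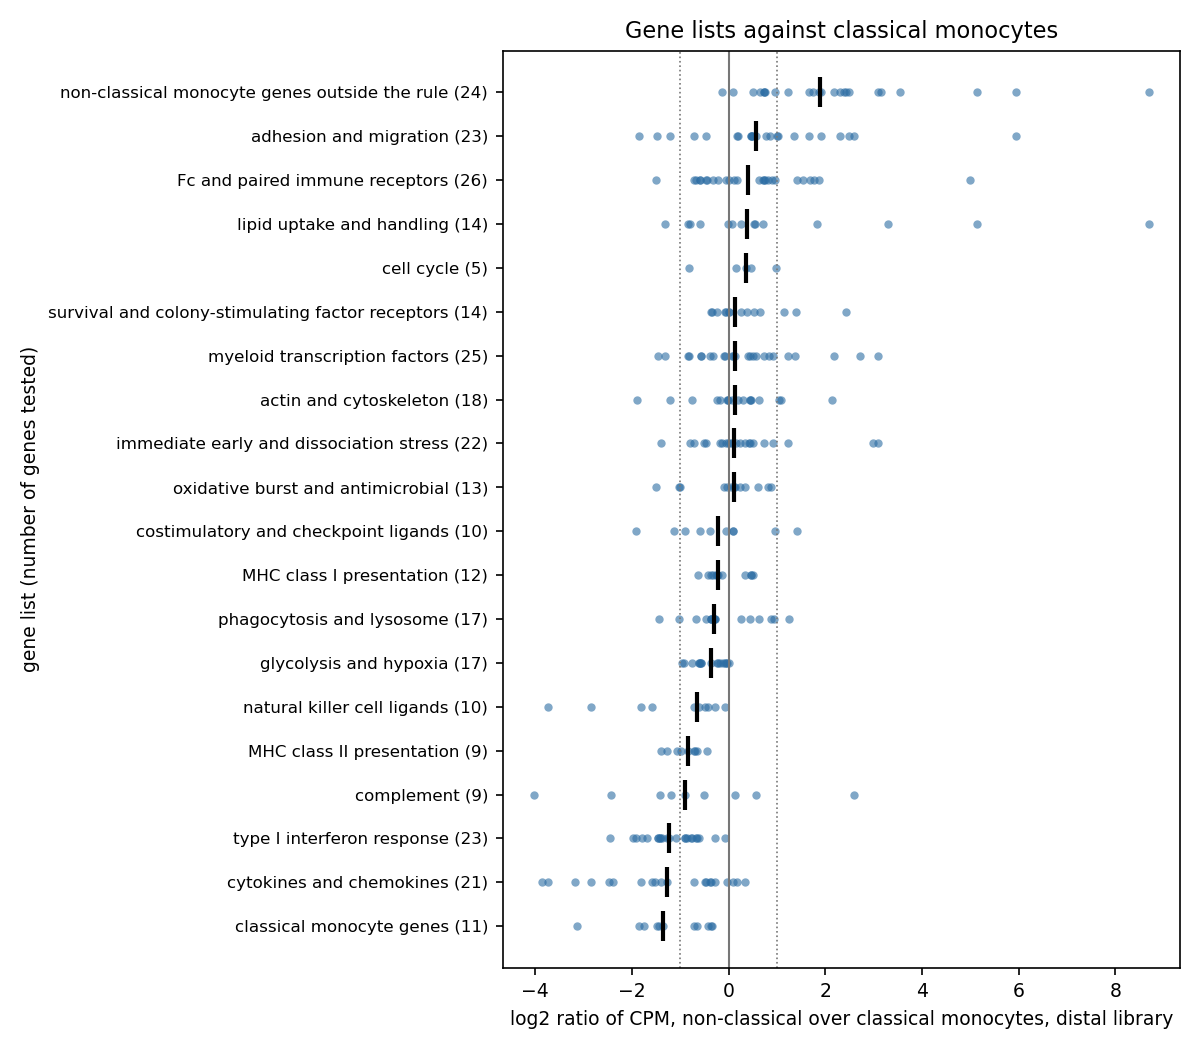
Each point is 1 gene of a list, placed by its log2 ratio of CPM in distal non-classical over classical monocytes; black bars are list medians and dotted lines mark 2-fold. The non-classical list has its median at 1.89, the type I interferon list at -1.24 with all 23 genes below 0.

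Against all other distal cells, 2 of 23 genes of the type I interferon list were 2-fold or more higher and 0 lower (median 0.23). Against distal C1q macrophages 2 were higher and 2 lower (median -0.22), and 1 and 5 without the neutrophil-marked members (median -0.25). Against classical monocytes the interferon response of the members was lower. All 23 genes of the type I interferon list lay below 0 and 13 were 2-fold or more lower (median -1.24). Ifit2 was at 26.9 against 149 CPM, Ifit3 at 33.4 against 133 CPM, Ifit1 at 39.0 against 148 CPM and Rsad2 (viperin) at 109 against 377 CPM. Without the neutrophil-marked members 18 of 23 were lower and the median was -1.25. The interferon-induced GTPases Iigp1 (24.1 against 151 CPM), Gbp4 (33.4 against 142 CPM) and Ifi47 (115 against 456 CPM) were among the lowest genes outside the lists. Per cell, the summed list had a median of 1681 CPM in members and 3903 CPM in classical monocytes, with 10 and 0 cells at 0, and the 2 sets of cells overlapped (up to 20647 and from 201 CPM).

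Chemokines of T cell and monocyte recruitment showed the same direction. Cxcl9, a ligand of CXCR3, was at 120 against 1608 CPM and Cxcl10 at 242 against 1756 CPM. In members the UMIs of Cxcl9 came from 11 cells and those of Cxcl10 from 17. Of 21 cytokine and chemokine genes 11 were lower and 0 higher (median -1.28), and 13 were lower without the neutrophil-marked members (median -1.86). Of 9 complement genes 4 were lower, among them C3 (71.5 against 191 CPM) and Cfb (2 against 25 UMIs), and 1 was higher, Itgax. Of 9 MHC class II genes 3 were lower and all lay below 0 in the summed levels (median -0.85). The typical cell went the other way: the summed class II level per cell had a median of 2410 CPM in members and 1557 CPM in classical monocytes. The first quartiles were 499 and 503 CPM and the third 12344 and 23466 CPM, so the lower sums reflect the upper part of the classical monocytes.

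Genes of the classical monocyte list that did not choose the cells were lower in 6 of 11 cases and below 0 in all 11. Fn1 (fibronectin) was at 41.8 against 373 CPM and Ly6a at 92.8 against 334 CPM. Lyz2, a lysozyme, was at 12388 against 25328 CPM, and its neighbour and near copy Lyz1 at 18.6 against 270 CPM, where reads may be split between the 2. Vim (1017 against 2370 CPM), Capg (124 against 464 CPM) and Ctsc (547 against 1487 CPM) were also lower. Of 17 genes of glycolysis and hypoxia 16 lay below 0, yet none reached 2-fold (median -0.36). Without the neutrophil-marked members 3 of the 17 were 2-fold or more lower (median -0.47). The 5 cell cycle genes with enough UMIs all lay within 2-fold. Over the whole cell cycle list the per-cell median was 812 CPM in members, with 24 cells at 0, and 1238 CPM in classical monocytes, with 2 at 0.

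Against the 458 distal C1q macrophages, tissue phagocytes told apart by the exclusion genes, 1155 of 7254 genes (15.9%) were 2-fold or more higher in the members and 573 (7.9%) lower. The median of all genes was 0.16 here, and centring on it moved the share of higher among all called genes from 66.8% to 53.1%, so the balance of higher and lower depends on the scaling. All 8 MHC class II genes were lower (median -2.24, and all by more than the median shift), with H2-Aa at 1871 against 9264 CPM and H2-Ab1 at 1729 against 8690 CPM. Of 20 cytokine and chemokine genes 12 were lower and 1 higher (median -1.34, and -2.00 without the neutrophil-marked members), led by Ccl7 (2.78 against 204 CPM), Cxcl16 (31.6 against 781 CPM), a membrane-bound chemokine, and Ccl12 (39.9 against 690 CPM). Retnla, Ccl8, Mgl2 and Saa3 had 1, 3, 1 and 6 UMIs in members against 432, 756, 187 and 431 CPM in the macrophages.

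Members exceeded the C1q macrophages in adhesion genes, 13 of 23 higher and 1 lower (median 1.15), including Itgal (531 against 44.8 CPM) and Itga4, the alpha chain of VLA-4 (471 against 91.4 CPM). They were also higher in Ear2 (596 against 21.5 CPM), Pglyrp1 (455 against 12.8 CPM), Plac8 (3391 against 534 CPM) and Lsp1, a leukocyte actin-binding protein (930 against 151 CPM). Cx3cr1 (log2 ratio 0.51), Csf1r (0.32) and Fcgr4 (0.05) were within 2-fold, so these 3 genes did not set members apart from macrophages. Lcn2 and Wfdc21, both carried by neutrophils, were higher at 4.51 and 3.89 with all members, and at -0.90 and -0.11 without the 50 neutrophil-marked cells.

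Members varied among themselves along the number of rule genes, a description of the choice as much as of the cells. Fabp4 was at 109, 249, 373 and 437 CPM in members with 3, 4, 5 and 6 rule genes. Ly6c2, a marker of classical monocytes, was at 417, 333, 268 and 244 CPM in the same order. Spn was at 152 CPM at 3 rule genes and between 268 and 299 CPM above. Nr4a1 varied less, from 865 to 1144 CPM, and Cx3cr1 from 257 to 355 CPM. The summed classical monocyte genes went from 9780 to 7252 CPM. Median UMIs were 3573, 3074, 3962.5 and 4882, so the members with 6 rule genes were also the deepest, and the part of depth was not tested.

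**Figure D4:**
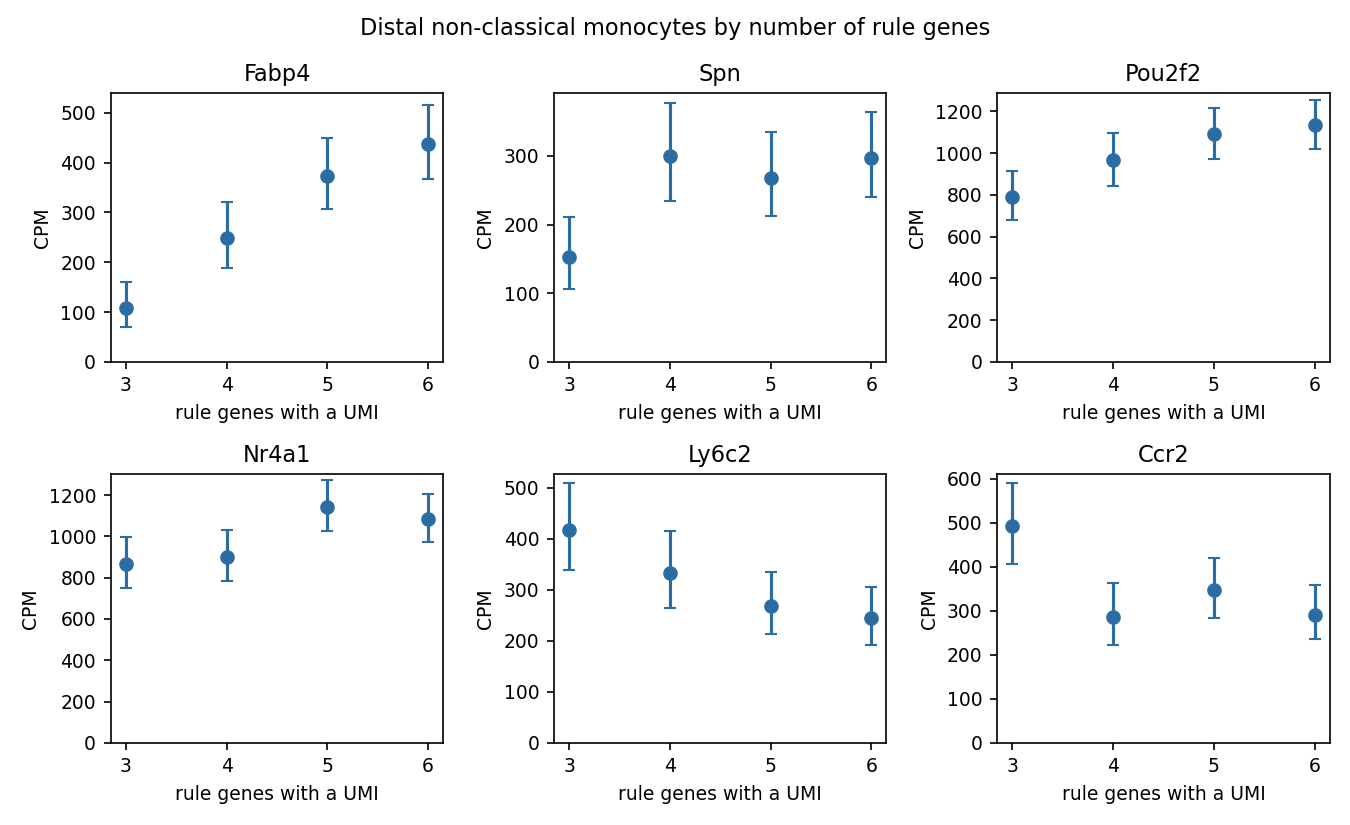
CPM of 6 genes outside the rule in distal members that held 3, 4, 5 or 6 rule genes (55, 63, 62 and 54 cells); bars are exact 95% Poisson intervals of the summed UMIs. Fabp4 is lowest at 3 rule genes (109 CPM) and highest at 6 (437 CPM), while Ly6c2 goes from 417 to 244 CPM.

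The last comparison set the 30 niche members beside the 234 distal members, for genes of at least 50 CPM over both. Of 2960 genes 209 (7.06%) were 2-fold or more higher in the niche and 150 (5.07%) lower. The 2 libraries were counted with different software versions and gene lists, and 220 of these genes were set aside because their exons overlap a gene held by 1 list only or because they shifted 2-fold the same way in T, B and endothelial cells. Of the remaining 2740 genes 135 (4.93%) were higher and 127 (4.64%) lower, and the list counts below are over these genes unless said otherwise. Library and group cannot be told apart, and 30 cells with 270650 UMIs are few, so a gene carried by 1 cell is named as such.

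MHC class II genes were higher in the niche members, 5 of 6 by 2-fold or more (7 of 8 with the genes set aside) with a median of 1.40. H2-Aa stood at 4737 against 1871 CPM (log2 ratio 1.34, 1.24 to 1.44). With each cell thinned to 2000 UMIs it was found in 86.7% of niche and 54.3% of distal members (93.3% and 58.5% unthinned), against 13.2% of distal T cells. H2-Ab1 was at 5040 against 1729 CPM. The summed class II level per cell had a median of 25099 CPM and a lowest value of 1179 CPM in the niche, against a median of 2410 CPM and 24 cells at 0 in the distal library, with overlapping ranges. Classical monocytes also stood higher in the niche library, with a median of 1.10 over the same 6 genes, whereas C1q macrophages stood at -0.37. A larger part of the niche members held markers of other class II-bearing cells. Of 30 niche members 10 held 3 or more interstitial and C1q macrophage markers, against 8 of 234 distal ones. For B cell markers the counts were 4 and 15. These counts were not thinned, and the niche members were the deeper cells (median 7890.5 against 3732 UMIs). Summed levels were 602 against 445 CPM for B cell, 196 against 48.3 CPM for conventional and 1142 against 579 CPM for plasmacytoid dendritic cell markers. The plasmacytoid list includes Bst2, also a gene of the type I interferon list, at 252 CPM in distal members. Summed macrophage markers went the other way, at 2161 against 3499 CPM, and their list includes the 4 exclusion genes that the rule limits. Without the 13 niche and 27 distal members holding 3 or more markers of any of these 4 types, all 6 class II genes were 2-fold or more higher (median 1.78) and H2-Aa was at 5180 against 1564 CPM.

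Interferon genes were higher in the niche members in 5 of 10 cases and lower in 0, with a median of 1.01 and 9 of 10 above 0. For classical monocytes the median over these 10 genes was -0.10 and for C1q macrophages 0.00, though the difference between cell types could not be tested with 1 library each. Oasl2 was at 122 against 47.3 CPM and Xaf1 at 148 against 63.1 CPM. Ifit3 was at 129 against 33.4 CPM, but 65.7% of its niche UMIs came from 1 cell, and without that cell it stood at 49.8 CPM. Without this cell, which also held 204 of the 367 Cxcl10 UMIs and 122 of the 277 Ly6a UMIs, only 1 of 8 interferon genes with enough UMIs was 2-fold or more higher, 7 lay above 0 and the median was 0.73. The count of higher interferon genes therefore rested largely on 1 cell. Another cell, the niche member of highest summed interferon level, left 4 of 10 genes higher and a median of 0.91 when it was left out.

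Of 8 cytokine and chemokine genes 3 were higher and 1 lower (median 0.42), a list in which single cells weighed heavily. Cxcl10 was at 1356 against 242 CPM, and at 676 CPM without 1 niche cell that held 55.6% of its UMIs. Ccl7, the widest ratio of all named genes (146 against 3 UMIs), rested on 1 niche cell with 95.2% of the UMIs and stood at 28.6 CPM without it. Ccl5, which attracts T cells and natural killer cells, was at 562 against 87.2 CPM with UMIs in 11 niche members. Cd40, a costimulatory receptor, was at 163 against 37.1 CPM.

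Other genes higher in the niche were the proteoglycan Sdc4 (347 against 15.8 CPM, 216 CPM without its highest cell), the nuclease Dnase1l3 (196 against 10.2 CPM), Ly6a (1023 against 92.8 CPM, 643 CPM without its highest cell), Serpina3g (329 against 34.3 CPM), the arginine synthesis enzyme Ass1 (314 against 39.9 CPM), Scimp (277 against 36.2 CPM) and the GTPase Gbp4 (225 against 33.4 CPM). All 7 were also higher in niche than in distal classical monocytes, for example Ly6a at 2015 against 334 CPM and Dnase1l3 at 228 against 22.4 CPM. Niche C1q macrophages held Dnase1l3 at 386 CPM and Serpina3g at 588 CPM. In the niche members with fewer than 5 exclusion gene UMIs, Dnase1l3 was at 144 CPM and Serpina3g at 256 CPM. Without the members holding 3 or more macrophage, B or dendritic cell markers, Sdc4 was at 41.1 against 1.17 CPM, Dnase1l3 at 164 against 6.99 CPM and Serpina3g at 288 against 17.5 CPM. The interstitial and C1q macrophage markers summed to 2161 CPM in niche members and 3499 CPM in distal ones, although 33.3% and 3.42% of the members held 3 or more of them, with per-cell ranges of 0 to 23465 and 0 to 27464 CPM, 7 and 8 of 10 detected, and Folr2 and Lyve1 at 0 in both. The marker list includes the 4 exclusion genes, which the rule limits, so these values are not free of the choice of the cells. Apoe, also on the list, made up most of the sums. It was at 3605 and 3334 CPM in distal members with 3 and with 4 to 6 rule genes, and at 2375 and 1569 CPM in niche ones. The part of these markers in the other results was not tested.

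The genes that mark the subset were lower in the niche members. Of 18 non-classical genes outside the rule 7 were 2-fold or more lower, 0 higher and 17 below 0 (median -0.92), and 10 were lower without the neutrophil-marked members (median -1.02). Nr4a1 was at 473 against 1013 CPM, Pou2f2 at 447 against 1012 CPM, Klf2 at 466 against 1167 CPM, Spn at 99.8 against 259 CPM, Ear2 at 118 against 596 CPM and Cd36 at 88.7 against 236 CPM. The rule genes themselves stood between -0.92 for Cd300e and -1.77 for Eno3, which are values the rule used. Niche members were also the deeper cells, and the part of depth was not tested. Among members with 4 to 6 rule genes alone, Nr4a1 was at 523 CPM in the niche and 1054 CPM in the distal library, and Pou2f2 at 424 and 1071 CPM. In classical monocytes Nr4a1 (139 against 434 CPM) and Klf2 (211 against 704 CPM) were lower in the niche as well, and the median over the 18 genes was -0.56. Of 18 genes of the immediate early response, which tissue handling can induce and which include Nr4a1, Klf2 and Klf4, 3 were lower and 16 below 0 in the members, and the part of handling was not tested.

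Further genes lower in the niche members were Klf4 (174 against 431 CPM), Lilra5 (59.1 against 214 CPM), Myo1g (66.5 against 274 CPM), Anxa1 (51.7 against 226 CPM), L1cam (18.5 against 91.9 CPM) and the lipase Lpl (33.3 against 161 CPM). Lcn2 was at 18.5 against 139 CPM, with 40.0% of its distal UMIs in 1 cell and the neutrophil-marked cells more frequent in the distal library. The lipid list had a median of -0.59 in members and 0.19 in classical monocytes.

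**Figure D5:**
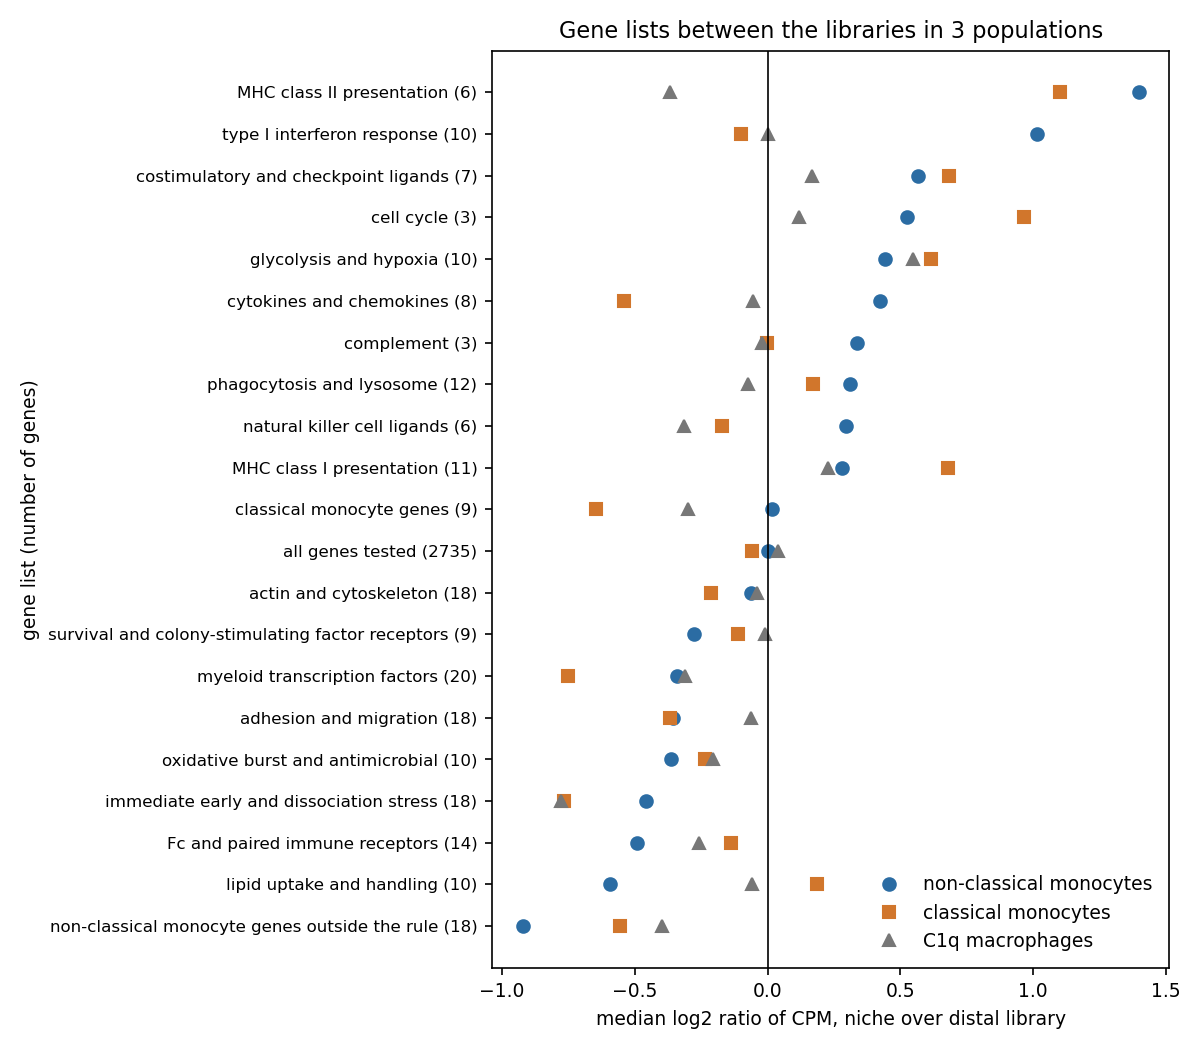
Median log2 ratio of CPM, niche over distal library, for each gene list in non-classical monocytes (circles), classical monocytes (squares) and C1q macrophages (triangles), without the genes set aside. In non-classical monocytes MHC class II stands at 1.40, the type I interferon list at 1.01 (0.73 without 1 cell) and the non-classical list at -0.92, while the 2735 genes with a value in all 3 populations have a median of 0.00.

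Within the niche library alone, where software and gene list are the same, the members were set against 100 niche classical monocytes. Of 2832 genes with a mean of at least 50 CPM over both, 156 (5.51%) were 2-fold or more higher and 63 (2.22%) lower. Of 19 non-classical genes outside the rule 12 were higher and 0 lower (median 1.27), with Ear2 at 3.24, Spn at 2.31, Pou2f2 at 2.28 and Nr4a1 at 1.76 as log2 ratios. Of the genes named in the distal contrast that had at least 20 niche UMIs, 27 of 29 higher genes and 29 of 36 lower genes had the same direction, 18 and 11 of them by 2-fold or more. Over all 2832 genes 1573 (55.5%) lay above 0. The named genes were picked largely for wide distal ratios and include the rule genes, whose direction the choice of the cells sets. Of the interferon list 2 of 19 genes were lower, with a median of -0.23 against -1.24 in the distal library. The 2 medians are over unlike sets of genes, 19 with at least 50 CPM here and 23 with at least 10 CPM there.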

How the data were processed

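The deposited matrices hold whole-number UMI counts per gene and barcode, made by the authors and not normalized, per the file headers, which name software version 3.0.2 for the distal and 6.0.0 for the niche library. Tools named in the submitters' processing notes were Bowtie2, RSEM, Seurat 4.1.1 and Cell Ranger 3.02, and builds GRCm38 and mm10, without the step each served. The gene lists held 30149 and 32285 identifiers, 29413 of them in both.

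A barcode was kept if it had 200 genes or more and no more than 10% of its UMIs from mitochondrial genes. No doublet caller was relied on. Alternatives left out members with 3 or more markers of another lineage, or the 5% of cells with the most UMIs. UMIs were summed per population, and ratios had exact conditional binomial intervals at 95%. Alveolar macrophages, neutrophils, T, B and endothelial cells were cells with a UMI of at least 3 of their markers. No p-value was computed, since cells of 1 library are not replicates. Members and lists were chosen with earlier results of these data known. Named genes were the rule genes, up to 4 genes of each of 20 lists with the largest ratios, and outside the lists the 12 highest and 8 lowest with at least 50 UMIs and 50 CPM and an interval beyond 2-fold. Some genes of the lists are given beyond this rule and were chosen after their values were seen. The ratio step was tested on simulated data. Scripts ran under Python 3.11.15 with pandas 2.3.3, scipy 1.17.1, numpy 2.4.6, and matplotlib 3.10.9 for plots. Some named genes are not reported here.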

Additional observations from a re-analysis of the deposited data

How the results depend on the processing

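No paired analysis was possible because each group is 1 library and the labels give no shared replicate. The niche values rest on 30 cells, and counting error grows with fewer UMIs.

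With at least 2 of 6 rule genes the shares were 8.56% (distal) and 2.76% (niche), a ratio of 3.10, with 397 genes higher and 466 lower against other distal cells and 375 lower against C1q macrophages; Ccl5 (0.58) and Slpi (0.17) against classical monocytes, Slpi against C1q macrophages (0.086) and Axl in the niche (-0.00173) changed sign. With at least 4 the shares were 5.06% and 0.552%, and with the rule applied after thinning to 2000 UMIs 5.15% and 0.413%, a ratio of 12.5. At most 5% mitochondrial UMIs gave 7.91% in the distal library. Without members holding 3 or more markers of another lineage the distal share was 4.75%, 558 genes were lower against classical monocytes and 247 in the niche, and Mrc1 (-1.13, classical), Lcn2 (-0.60) and Wfdc21 (-1.69, both C1q) and Bpifa1 (1.81, niche) changed sign. A minimum of 5 CPM (20 in the niche) gave 919 genes higher against classical monocytes, 861 lower against C1q macrophages, and 467 higher and 350 lower in the niche, because more genes were counted; without the genes set aside 135 were higher in the niche.

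Against other distal cells, the mean of per-cell CPM put Csf3r at -0.49 and Hp at -0.22; weighing the 7 other populations the same put Cd177 at -0.17, Csf3r at -0.45 and Hp at -0.52; and leaving out alveolar macrophages put Cidec at 1.73 and the lipid list at 0.10. Without neutrophil-marked members, Bpifa1 and Scgb3a2 (-0.18 each, classical), Lcn2 (-0.90) and Wfdc21 (-0.11, both C1q) and Bpifa1 (1.58, niche) changed sign. Without the 1 cell rich in Scgb1a1, so did Bpifa1 and Scgb3a2 (-0.68 each, classical), Scgb3a2 (-0.37, C1q) and Bpifa1 (1.99, niche). Without members holding 3 or more macrophage, B or dendritic cell markers, Fabp5 was at -2.47 in the niche. These 3 alternatives, and those without the niche cell of highest interferon level or of most Ifit3 UMIs, were chosen after seeing the data. The other causes were not tested. Under the alternatives, 1169 of 1485 values of named genes stayed within their intervals against other distal cells, 1191 of 1287 against classical monocytes, 1156 of 1313 against C1q macrophages and 1509 of 1631 in the niche.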

Other observations

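The genes whose level followed that of the summed rule genes most closely over the 8 distal populations were Brd7, Lats2, Dusp6, Scnn1a, Gss, Rras, Slc12a2, Arhgap27, Arhgef10l and Ccdc9, with Pearson's r of log2(CPM + 1) from 0.89 to 0.92 among 7553 genes ranked. The populations share 1 library and differ in depth, so these values are a description. For 9 of the 10 the next highest population was the endothelial cells, which also hold Ace, and Brd7 and Gss were a little higher there than in the members (81.1 against 78.9 CPM and 30.9 against 23.2 CPM). Slc12a2 (136 against 27.0 CPM) and Arhgef10l (71.5 CPM, against 14.9 CPM in classical monocytes) stood farthest from the next population.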
